A study of Mus musculus with 12 samples.

Results

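The signal recognition and ER translocation machinery brings newly made secretory and membrane proteins to the endoplasmic reticulum (ER) and through or into its membrane. A list of 33 of its genes was looked up by symbol in the 10 RNA-seq libraries of the series, and 31 were found, among 24189 genes listed in every library. Srp54a, the subunit of the signal recognition particle (SRP) that binds the signal sequence, was listed only under rows marked as duplicates, and Camlg, a membrane receptor for tail-anchored proteins, was listed only under its older symbol Caml; neither was counted. All 31 genes found passed the filter on low values in each fit (1 TPM, transcript abundance corrected for length and library, or more in at least 2 libraries).

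In cells that secrete proteins, SRP meets a signal sequence as it leaves the ribosome, slows translation and docks with the SRP receptor on the ER membrane. The ribosome is then handed to the Sec61 channel, around which the TRAM proteins, the translocon-associated protein (TRAP) complex, Sec62 and Sec63 are placed, and signal peptidase removes the signal peptide inside the ER. Membrane proteins with a single anchor at their C-terminus take another route, in which Sgta, Bag6, Ubl4 and Get4 pass them to the ATPase Asna1 and its receptor of Wrb and Camlg. Antibody-secreting cells are known for a large ER and a heavy flow of immunoglobulin chains through this machinery.

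The libraries fell into 5 groups of 2, all from C57BL/6 mice. Plasmablasts (PBs) came from splenic B cells kept in iGB culture up to day 8, on feeder cells that supply CD40 ligand and BAFF, with IL-4 in the first days and IL-21 in the later ones, and were sorted as CD138+CD23- cells. Their genotypes were Xbp1(fl/fl) (control PBs), with a floxed gene and no Cre; Cd23-Cre Xbp1(fl/fl), in which Cre acts from the immature B cell stage on and removes Xbp1, a transcription factor of the unfolded protein response (Xbp1-deficient PBs); and Bhlha15(CreER/CreER), with a CreER insertion in both copies of the gene for the transcription factor Mist1 (Mist1-deficient PBs). Plasma cells (PCs) were the TACI+CD138+ fraction of spleens taken 7 days after immunization with NP-KLH, and were labelled wildtype or Cd23-Cre Bhlha15(fl/fl), with Cre-mediated loss of Mist1 (Mist1-deficient PCs). In addition, Mist1-bound regions were mapped in 2 Bio-ChIP-seq experiments on Bhlha15(fl/fl) R26(BirA/BirA) PBs, made with LPS for 4 days, in which the floxed allele also carries a biotin acceptor tag for the BirA ligase. Ages of the animals and pooling were not given in the sources used here, and since 2 libraries a group may share more than their genotype, the p-values measure the spread between these libraries.

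Since the deposited TPM are corrected for transcript length, levels can be set side by side between genes, and each library summed to 1000000 with immunoglobulin and T cell receptor genes left out. Read depth cannot be read from them. The targeted genes followed the labels: Bhlha15 stood at 176 and 159 TPM in control PBs, 0.210 and 0.551 in Mist1-deficient PBs, 3.57 and 2.60 in Xbp1-deficient PBs, 258 and 242 in wildtype PCs and 14.4 and 16.6 in Mist1-deficient PCs. Xbp1 itself was at 3168 and 3043 TPM in control PBs and 1981 and 2024 in Xbp1-deficient PBs, a value of the whole gene that does not separate the floxed part. All 9 markers of antibody-secreting cells reached 1 TPM in every group. In bulk samples, fewer cells of a type and less RNA per cell cannot be told apart.

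In control PBs, the machinery made up 1.84% and 1.80% of all TPM in the 2 libraries. Sec11c, a catalytic subunit of signal peptidase, was the highest member in all 5 groups, with 3866 and 3707 TPM in control PBs, followed by the TRAP subunits Ssr2 at 2027 and 1964 TPM, Ssr4 at 1884 and 1930.4 TPM and Ssr3 at 1421 and 1417 TPM. The lowest were Ubl4, a ubiquitin-like protein of the tail-anchored route, at 8.31 and 7.92 TPM, Wrb at 8.25 and 9.91 TPM, Sec61a2 at 9.78 and 12.5 TPM and Sec61g at 14.01 and 10.2 TPM. The deposited levels of genes whose proteins work in one complex were unequal: Sec61g, the gamma subunit of the channel, gave only 0.682% of the summed TPM of the 4 Sec61 genes, while Sec61a1 gave 52.4% and Sec61b 46.3%. Identical copies elsewhere in the genome exist for 19% of the 50-base words of Sec61g and 39.2% of those of Sec61b, and how such reads were counted is not given, so their levels against other genes are uncertain.

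**Figure D1:**
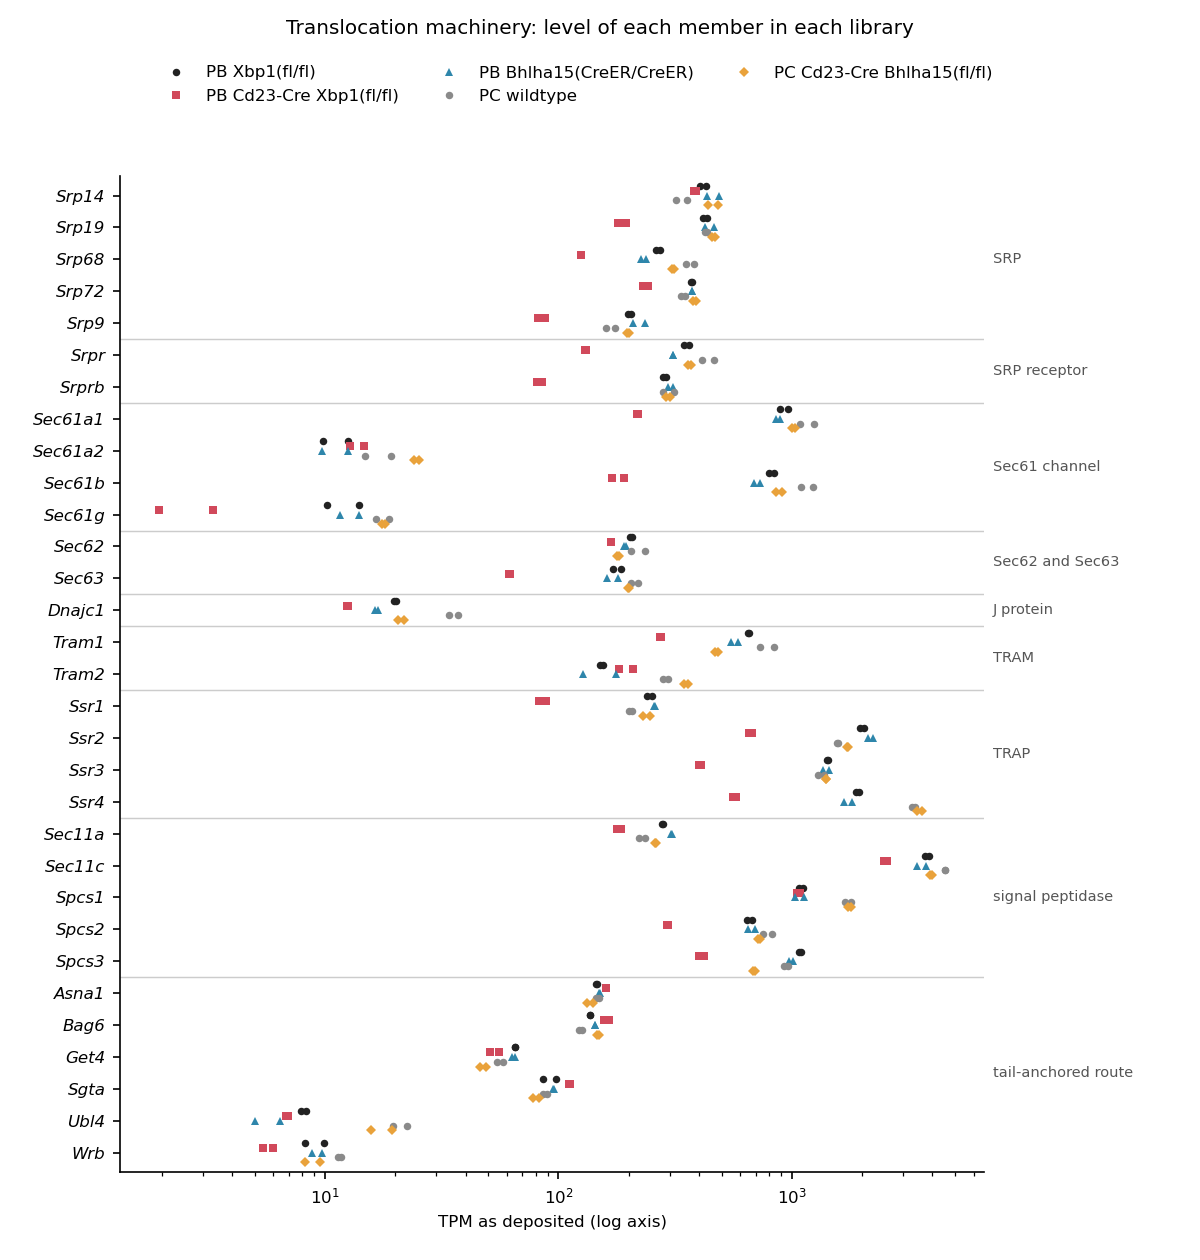
Deposited TPM (log axis) of each of the 31 members in each of the 10 libraries, grouped by role, with 1 symbol per library and a colour and shape per group. The squares of the Xbp1-deficient PBs lie to the left of the black points of the control PBs for most members, as for Sec61a1, at 219 and 216 against 963 and 892 TPM, but not for Spcs1, at 1056 and 1087 against 1111 and 1070.3 TPM.

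Loss of Xbp1 in PBs went with lower RNA of most of the machinery. Between Xbp1-deficient and control PBs, 24 of the 31 members fell (limma, adjusted p under 0.05), where 18% of the 12125 genes tested fell, and 0 rose, where 10.3% of genes rose; no member was higher at an unadjusted p under 0.05 either. With the thresholds of the study added (more than 3-fold and a mean above 5 TPM in the higher group), 11 members fell, where 1.63% of genes did, and on the TPM as deposited 6 did. On the scaled values both Xbp1-deficient libraries lay below both control libraries for 27 members (35.5% of genes) and above them for 1 (34% of genes). The median log2 fold change was -1.31 over the members and 0.0041 over all genes tested. On the TPM as deposited, the median of all genes stood at 0.21 and that of the members at -1.10. There 23 members fell and Bag6 and Sgta rose, beside 1357 and 3423 of all genes. After quantile normalization 24 members fell and Bag6 rose, beside 1968 and 2517 genes. The channel, the TRAP complex and the SRP receptor fell the most, the subunits of SRP and signal peptidase fell unequally, and the tail-anchored route fell least.

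The Sec61 channel, the pore itself, showed the greatest falls. Here and below, levels are deposited TPM and fold changes come from scaled TPM, so a fold change need not equal the ratio of the levels. Sec61a1, the pore-forming alpha subunit, was at 963 and 892 TPM in control PBs and at 219 and 216 TPM in Xbp1-deficient PBs, a 4.92-fold fall (log2 fold change -2.30 ± 0.09, adjusted p = 1.45e-06; errors of fold changes are standard errors). Sec61b, the beta subunit that binds the outside of the pore, went from 841 and 799 to 189.9 and 169.5 TPM (5.28-fold lower, log2 fold change -2.40 ± 0.11, adjusted p = 2.67e-06). Both genes were far lower in both Xbp1-deficient libraries than in either control library, and only 0.652% of the genes tested had a lower log2 fold change than Sec61b. Sec61g, the gamma subunit, fell from 14.01 and 10.2 to 1.95 and 3.31 TPM (5.23-fold, log2 fold change -2.39 ± 0.27, adjusted p = 0.000345), with less precision at these low levels. The paralogue Sec61a2 was at 9.78 and 12.5 TPM in the control and 12.8 and 14.7 TPM in the Xbp1-deficient PBs, where the deposited values did not overlap but no change passed the test (log2 fold change 0.10 ± 0.14, adjusted p = 0.624, 95% interval -0.22 to 0.43). Of the summed TPM of the 4 genes, Sec61a2 thus gave 0.629% in control PBs and 3.33% in Xbp1-deficient PBs.

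Sec63, a J-domain protein that brings the chaperone BiP to the channel, fell 3.34-fold, from 185 and 172 to 61.2 and 62.1 TPM (log2 fold change -1.74 ± 0.11, adjusted p = 1.18e-05). Its partner Sec62 fell much less, from 206 and 203 to 168 and 167 TPM (1.41-fold, log2 fold change -0.50 ± 0.08, adjusted p = 0.00302). The 2 genes were at similar levels in control PBs, where Sec63 gave 46.6% of their sum, and at unequal levels in Xbp1-deficient PBs, where it gave 26.9%. Dnajc1, another J protein of the ER membrane, went from 20.1 and 19.7 to 12.5 and 12.4 TPM (1.84-fold lower, log2 fold change -0.88 ± 0.10, adjusted p = 0.000276).

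All 4 subunits of TRAP, which sits beside the channel and helps chains with weak signal sequences to enter, fell between 3.32-fold and 4.05-fold. Ssr2 (TRAP beta) went from 2027 and 1964 to 677 and 656 TPM (log2 fold change -1.79 ± 0.12, adjusted p = 1.3e-05). Ssr3 (TRAP gamma) went from 1421 and 1417 to 409 and 399.9 TPM (log2 fold change -2.02 ± 0.11, adjusted p = 4.96e-06). Ssr4 (TRAP delta) went from 1884 and 1930.4 to 576 and 559 TPM (log2 fold change -1.96 ± 0.11, adjusted p = 7.59e-06), and Ssr1 (TRAP alpha), the least abundant of the 4, from 251 and 241 to 88.5 and 82.2 TPM (log2 fold change -1.73 ± 0.09, adjusted p = 4.19e-06). The replicate libraries lay close together for each of them and the groups did not overlap. Proportions within the complex moved little: Ssr1 gave 4.41% of the TRAP sum in the control and 4.95% in the Xbp1-deficient PBs, and Ssr3 25.5% and 23.5%.

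The SRP receptor fell as a pair. Srprb, the GTPase subunit anchored in the membrane, went from 289.7 and 279.7 to 85.4 and 80.9 TPM (3.95-fold lower, log2 fold change -1.98 ± 0.09, adjusted p = 3.03e-06). Srpr, the subunit that contacts SRP, went from 361 and 345 to 130.2 and 131 TPM (3.12-fold lower, log2 fold change -1.64 ± 0.09, adjusted p = 4.94e-06), and stood just beyond the 3-fold line. Both Srprb and Srpr were lower in both Xbp1-deficient libraries than in both controls. In TRAM, the membrane proteins first found beside nascent chains at the channel, the 2 genes parted. Tram1 fell 2.76-fold, from 657 and 652 to 276 and 271 TPM (log2 fold change -1.47 ± 0.08, adjusted p = 5.72e-06). Its relative Tram2 was at 155 and 151 TPM in the control and at 182 and 208 TPM in the Xbp1-deficient PBs, with no change past the test (log2 fold change 0.14 ± 0.12, adjusted p = 0.437). Tram1 gave 81.0% of the summed TRAM TPM in control PBs and 58.4% in Xbp1-deficient PBs.

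Within SRP, 4 of the 5 protein subunits found fell, by unequal amounts. Srp9, which pairs with Srp14 in the domain that slows translation, went from 199 and 204 to 87.6 and 82.1 TPM (2.74-fold lower, log2 fold change -1.45 ± 0.11, adjusted p = 2.75e-05). Its partner Srp14 stayed at 380.4 and 389 TPM, near the 404 and 428 TPM of the control, and did not pass the test (log2 fold change -0.32 ± 0.11, adjusted p = 0.0585). The proteins of Srp9 and Srp14 form a heterodimer, and the difference between their 2 fold changes was not tested. Srp19, needed to load the signal-binding subunit onto the SRP RNA, went from 414 and 432 to 195 and 179.7 TPM (2.61-fold lower, log2 fold change -1.38 ± 0.10, adjusted p = 2.93e-05). Srp68 and Srp72 form the other heterodimer: Srp68 went from 273 and 262 to 124 and 124 TPM (2.48-fold lower, log2 fold change -1.31 ± 0.08, adjusted p = 8.56e-06), and Srp72 from 369 and 372 to 242 and 231 TPM (1.81-fold lower, log2 fold change -0.86 ± 0.08, adjusted p = 0.000132). For these 4 genes the groups did not overlap. The SRP RNA is not polyadenylated and was not measured in these polyA libraries.

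Signal peptidase was also uneven. Spcs3, an accessory subunit required for the activity of the complex, went from 1097 and 1069 to 422 and 400.5 TPM (3.04-fold lower, log2 fold change -1.61 ± 0.09, adjusted p = 7.29e-06), and Spcs2 from 673 and 639.7 to 291 and 295 TPM (2.59-fold lower, log2 fold change -1.37 ± 0.11, adjusted p = 3.61e-05). The catalytic subunits fell less: Sec11a went from 279 and 279 to 185 and 178 TPM (1.78-fold, log2 fold change -0.83 ± 0.08, adjusted p = 0.000165), and Sec11c from 3866 and 3707 to 2473 and 2559 TPM (1.74-fold, log2 fold change -0.80 ± 0.15, adjusted p = 0.00445). Spcs1, the remaining accessory subunit, was at 1111 and 1070.3 TPM in the control and 1056 and 1087 TPM in the Xbp1-deficient PBs, deposited levels that overlapped and did not pass the test (log2 fold change -0.23 ± 0.12, adjusted p = 0.183). Spcs1 was the fifth most abundant member in control PBs and the second in Xbp1-deficient PBs.

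The tail-anchored route is the one arm that does not use the Sec61 channel, and 3 of its 6 members fell. Wrb, the receptor subunit, went from 8.25 and 9.91 to 5.42 and 5.99 TPM (1.82-fold lower, log2 fold change -0.86 ± 0.13, adjusted p = 0.0016). Get4, which joins the Bag6 complex to Asna1, went from 65.2 and 65.4 to 50.9 and 55.7 TPM (1.42-fold lower, log2 fold change -0.50 ± 0.08, adjusted p = 0.0022), and Ubl4 from 8.31 and 7.92 to 6.79 and 6.95 TPM (1.36-fold lower, log2 fold change -0.44 ± 0.14, adjusted p = 0.0452). Ubl4 passed by a small margin and in 7 of 15 alternative fits. Neither the chaperones that bind the clients nor the ATPase passed the test: Bag6 was at 136 and 137 TPM in the control and 157 and 164 TPM in the Xbp1-deficient PBs (log2 fold change 0.03 ± 0.08, adjusted p = 0.816), Sgta at 86.2 and 97.9 TPM against 112 and 111 TPM (log2 fold change 0.07 ± 0.08, adjusted p = 0.57), and Asna1 at 145 and 146 TPM against 159.6 and 159 TPM (log2 fold change -0.08 ± 0.08, adjusted p = 0.497). On the log2 scale, the 95% interval was -0.15 to 0.21 for Bag6, -0.11 to 0.25 for Sgta and -0.25 to 0.10 for Asna1.

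Summed over all members, the deposited TPM were 18418 and 18012 in control PBs and 9035 and 9062 in Xbp1-deficient PBs, or 0.903% and 0.906% of all TPM in the latter. TRAP gave 30.3 and 30.8% of this sum in the control libraries and 19.4 and 18.7% in the Xbp1-deficient ones. Sec61 gave 9.93 and 9.51% in the former and 4.68 and 4.46% in the latter. The share of signal peptidase was 38.1 and 37.6% in the control and 49.0 and 49.9% in the Xbp1-deficient PBs, and that of the tail-anchored route 2.44 and 2.57% against 5.44 and 5.55%. On the scaled values, the median log2 fold change of the members of a role was -2.34 for Sec61, -1.87 for TRAP, -1.81 for the SRP receptor, -1.31 for SRP, -1.12 for Sec62 and Sec63, -0.83 for signal peptidase, -0.66 for TRAM and -0.26 for the tail-anchored route.

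**Figure D2:**
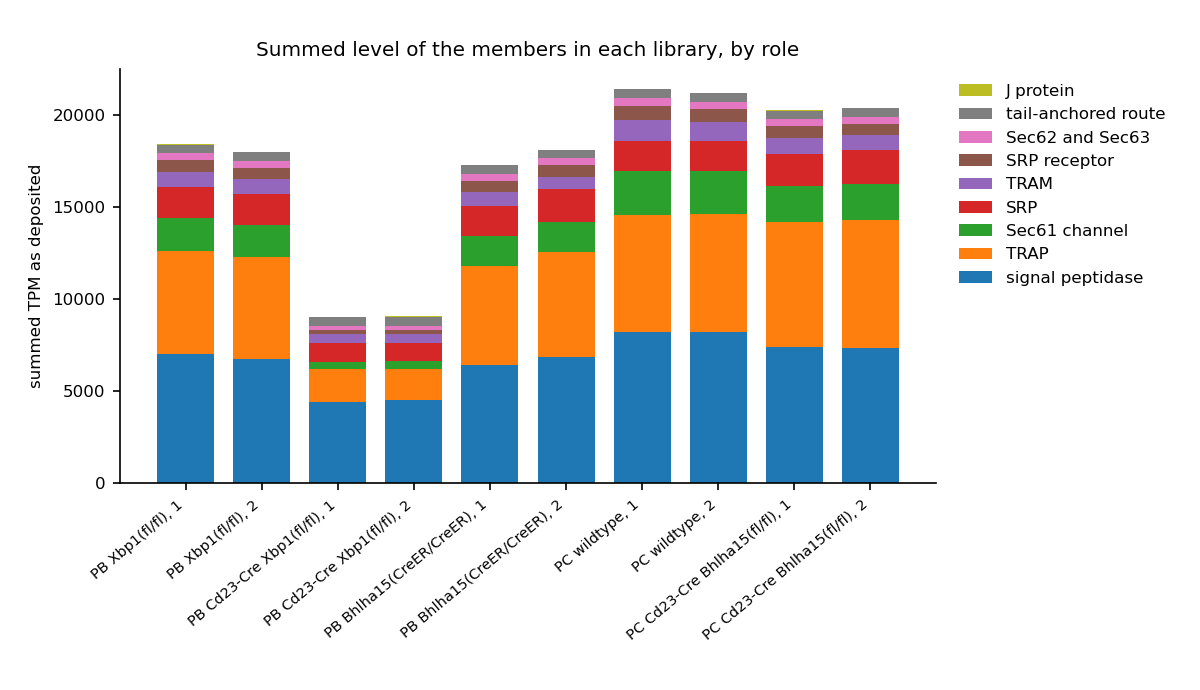
Deposited TPM summed over the members of each role, stacked, for each of the 10 libraries. The 2 bars of Xbp1-deficient PBs reach 9035 and 9062 TPM, below the other 8 bars, whose lowest is 17293 TPM, and signal peptidase takes up 49.0 and 49.9% of them.

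Among 25 further genes of the pathway that were found, 12 fell and 3 rose in the same comparison, where 18% and 10.3% of all genes did. Their median log2 fold change was -0.29. The greatest falls, with log2 fold changes in parentheses, were those of Hyou1, an exchange factor of BiP (-3.36 ± 0.09), Tmem208, of another targeting route to the ER (-2.22 ± 0.11), Serp1, a small protein bound to the channel (-2.13 ± 0.12), and Sil1, the other exchange factor (-1.68 ± 0.10), and all 4 were beyond the 3-fold line. Serp1 carries the overlap tag of the files. BiP itself, encoded by Hspa5, was at 7262 and 7136 TPM in the control and 8616 and 9223 TPM in the Xbp1-deficient PBs, with no change past the test (log2 fold change 0.10 ± 0.18, adjusted p = 0.721). Btf3 (0.60 ± 0.08) and Naca (0.53 ± 0.10), which form a complex that meets nascent chains, and Ktn1 (0.37 ± 0.08) were the 3 that rose. They were named after their values were seen, as was Hspa5. Of the rows left out of the count, 1 row of Srp54a stood at 2.81 and 2.504 TPM in the control and 1.43 and 1.41 TPM in the Xbp1-deficient PBs.

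Other values moved with these groups. The 10 fibroblast and feeder markers summed to 1226 and 1462 TPM in the control libraries, to 1934 and 1781 in the Xbp1-deficient libraries and to 1617 and 983 in the Mist1-deficient libraries, led by Col1a1, with 1 or 2 of the 10 under 1 TPM in a group. The 10 neutrophil markers summed to 11.6 and 10.3 TPM in the control and to 135 and 134 TPM in the Xbp1-deficient PBs, with 5 and 4 of the 10 under 1 TPM. The 9 markers of antibody-secreting cells, Xbp1 among them, summed to 21131 and 20355 TPM in the control and 8216 and 8166 TPM in the Xbp1-deficient PBs, led by Mzb1, with a mean of 15284 TPM in the former and 3627 TPM in the latter. Their part in the falls of the machinery was not tested. Of the 31 members, 9 carry the overlap tag of the files or have at least 10% of their 50-base words elsewhere in the genome (Dnajc1, Get4, Sec61b, Sec61g, Spcs1, Spcs2, Srp9, Srpr and Ubl4), and without these 9, 16 of 22 members fell. In the annotation, exons of Srprb overlap another gene on the same strand and those of Sec61a2, Sec63, Sec11a and Wrb one on the other strand, and without these too, 12 of 17 fell. As fitted with each library left out, 22 to 26 members fell.

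The promoters of the members were read to show what stands before genes that moved together. RefSeq promoters (GRCm38.p6, from 250 bases before to 50 after the start) were given for 24 members. Both strands were searched for 4 motifs at which Xbp1 and related factors of the ER stress response are known to bind, a set chosen after the expression values were seen: the ER stress elements ERSE and ERSE-II in their full consensus forms, the core TGACGTG of the unfolded protein response element, and GCCACGT. The last 2 share the letters ACGTG and can overlap; no member held both. GCCACGT was found in a promoter of 6 of the 24 members (Ssr1, Ssr3, Srprb, Sec63, Spcs1 and Get4). It is held by 3.78% of 11474 promoters of tested genes and 2.58% of all 32851 promoters. TGACGTG was found in 1 member, Srpr, where 2.9% and 2.01% of these promoters hold it. Members were counted by gene, with 2 promoters each for Get4 and Sgta, and the shares by promoter. Neither ERSE form was found in a member, and 0.119% and 0.0365% of all promoters hold them. In the sequences of 4 of the members with a match, each of which fell more than 3-fold, and of Sec61b, which fell most and has no match in this window, capitals mark the motifs on either strand:
Ssr1 promoter, chr13:37994159-37994458, minus strand: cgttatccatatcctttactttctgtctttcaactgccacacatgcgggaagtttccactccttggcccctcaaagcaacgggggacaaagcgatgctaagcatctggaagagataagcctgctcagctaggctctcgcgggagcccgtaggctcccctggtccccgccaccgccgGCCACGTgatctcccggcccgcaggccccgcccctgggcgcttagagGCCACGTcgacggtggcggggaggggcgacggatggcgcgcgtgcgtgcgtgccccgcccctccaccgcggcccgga
Srprb promoter, chr9:103202016-103202315, minus strand: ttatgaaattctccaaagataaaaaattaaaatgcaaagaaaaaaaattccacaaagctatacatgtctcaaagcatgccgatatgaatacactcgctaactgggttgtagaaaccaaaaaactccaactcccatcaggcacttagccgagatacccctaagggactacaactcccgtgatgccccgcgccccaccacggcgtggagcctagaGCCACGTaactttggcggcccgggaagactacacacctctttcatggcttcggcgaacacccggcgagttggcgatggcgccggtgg
Sec63 promoter, chr10:42761246-42761545, plus strand: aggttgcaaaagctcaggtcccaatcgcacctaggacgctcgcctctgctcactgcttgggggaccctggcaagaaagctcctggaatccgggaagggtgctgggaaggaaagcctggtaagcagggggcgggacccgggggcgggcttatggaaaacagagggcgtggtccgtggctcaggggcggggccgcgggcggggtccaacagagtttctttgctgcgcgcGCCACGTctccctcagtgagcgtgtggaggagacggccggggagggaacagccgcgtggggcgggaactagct
Srpr promoter, chr9:35210953-35211252, plus strand: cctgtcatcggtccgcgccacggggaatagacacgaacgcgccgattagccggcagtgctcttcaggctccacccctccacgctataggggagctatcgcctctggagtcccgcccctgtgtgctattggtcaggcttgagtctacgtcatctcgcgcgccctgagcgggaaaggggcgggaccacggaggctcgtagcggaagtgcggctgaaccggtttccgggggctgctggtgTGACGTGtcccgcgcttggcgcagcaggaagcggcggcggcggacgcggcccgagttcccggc
Sec61b promoter, chr4:47474411-47474710, plus strand: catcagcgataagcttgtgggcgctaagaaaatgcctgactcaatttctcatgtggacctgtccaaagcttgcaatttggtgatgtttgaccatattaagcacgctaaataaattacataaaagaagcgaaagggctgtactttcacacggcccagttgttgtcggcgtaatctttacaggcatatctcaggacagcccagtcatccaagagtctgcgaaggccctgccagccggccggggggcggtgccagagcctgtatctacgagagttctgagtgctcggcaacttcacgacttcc
Counted from the start site, GCCACGT begins at -74 and -27 in Ssr1, at -37 in Srprb and at -23 in Sec63, and TGACGTG begins at -13 in Srpr. A match describes the letters only: Spcs1 has GCCACGT at -61 and did not pass the test, and Get4, with the motif at -238 of 1 of its 2 starts, fell 1.42-fold.

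Loss of Mist1 in cultured PBs was compared with the same control libraries. Between Mist1-deficient and control PBs, 0 of the 31 members fell and 0 rose (limma), where 0.272% and 0.0495% of the genes tested did, and at an unadjusted p under 0.05 only Ubl4 was lower and none was higher. The median log2 fold change was 0.026 over the members and 0.0044 over all genes. For 29 of the 31 members the 95% interval of the log2 fold change lay within 0.5 of 0, and for all 31 within 1. None passed the thresholds of the study (0.033% of genes lower and 0.0165% higher). The channel genes stood at 887 and 854 TPM for Sec61a1 and 691 and 732 TPM for Sec61b in Mist1-deficient PBs, and log2 fold changes were -0.05 ± 0.09 and -0.16 ± 0.11. Sec61g, at 11.6 and 14.05 TPM, had the widest interval (-0.49 to 0.77), and Ubl4, at 6.39 and 5.03 TPM against 8.31 and 7.92 TPM in the control, the lowest value (log2 fold change -0.47 ± 0.14, adjusted p = 0.287). The libraries of 4 members lay below both controls and those of 3 above, where 19.4% and 18.9% of genes did so. Tram2 differed most between the replicates of this group, at 176 and 127 TPM. Of the 25 further genes of the pathway none passed in either direction. The genotypes differ at Bhlha15 and also at Xbp1, which is floxed in the control.

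**Figure D3:**
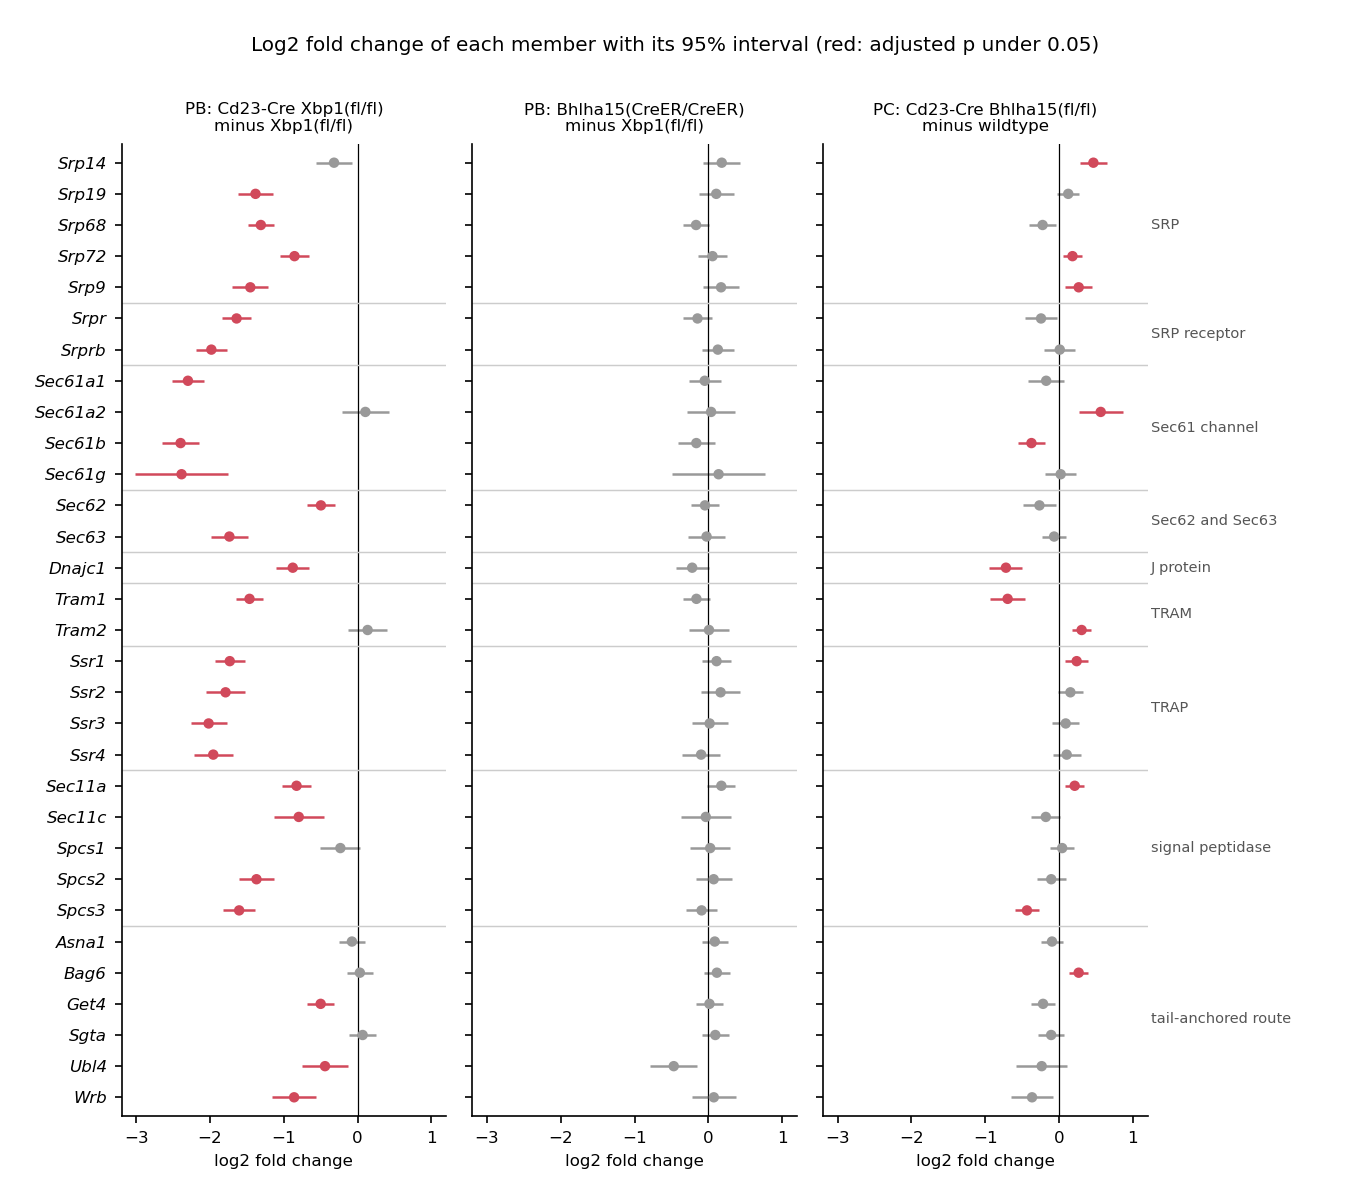
Log2 fold change (points) with its 95% interval (lines) of each of the 31 members in 3 comparisons, by role, with members past the test in red. In the left panel 24 members lie below 0 in red, in the middle panel none is red, and in the right panel 4 lie below and 8 above 0 in red, all within 1 of 0.

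Set directly against each other, Xbp1-deficient and Mist1-deficient PBs, which both have little Bhlha15 RNA, differed across the machinery. In the Xbp1-deficient PBs 24 members were lower (limma, 17.8% of genes) and 0 higher (9.34% of genes; none at an unadjusted p under 0.05), and 10 were beyond the thresholds of the study (1.66% of genes). On the TPM as deposited, where the median of all genes stood at 0.26, 24 were lower and Bag6 and Sgta were higher. Of all genes, 1266 were lower and 3977 higher on these values. Libraries did not overlap for 26 members, all lower (33.2% of genes, and 30.9% for higher). The median log2 difference was -1.15 over the members and 0.013 over all genes. Sec61g (-2.53 ± 0.27), Sec61a1 (-2.25 ± 0.09), Sec61b (-2.24 ± 0.11) and Srprb (-2.11 ± 0.09) differed the most. Srp14, which missed the test against control PBs, passed here, at 380.4 and 389 against 432 and 486 TPM (log2 fold change -0.50 ± 0.11, adjusted p = 0.00976), and Ubl4 did not (log2 fold change 0.03 ± 0.14, adjusted p = 0.911). Of the 25 further genes 13 were lower and 4 higher. Spcs1, Asna1, Bag6, Sgta, Sec61a2 and Tram2 passed in neither comparison, which share the Xbp1-deficient libraries.

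In splenic PCs, loss of Mist1 went with small shifts in both directions. Between Mist1-deficient and wildtype PCs 4 of the 31 members fell (limma), where 16.2% of the 12028 genes tested fell, and 8 rose, where 13.3% rose, and none was beyond 3-fold (0.723% of genes lower and 0.125% higher). Both mutant libraries lay below both wildtype ones for 13 members and above them for 13 (34.3% and 36% of genes). The member median was -0.066 and that of all genes 0.014 on the log2 scale. On the TPM as deposited 8 members fell and 7 rose, beside 2047 and 1304 of all genes. After quantile normalization 8 fell and 7 rose, beside 1781 and 1943 genes. Members summed to 21448 and 21236 TPM in wildtype PCs and 20268 and 20397 TPM in Mist1-deficient PCs.

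Dnajc1, which carries the overlap tag of the files, and Tram1 fell the most. Dnajc1 was at 37.0 and 33.8 TPM in wildtype PCs and 21.8 and 20.6 TPM in Mist1-deficient PCs (1.65-fold lower, log2 fold change -0.72 ± 0.09, adjusted p = 0.00448). Tram1 was at 841 and 728 TPM in the former and 485 and 469 TPM in the latter (1.62-fold lower, log2 fold change -0.70 ± 0.10, adjusted p = 0.00592). Both genes were lower in both mutant libraries than in either wildtype library, although the wildtype libraries of Tram1 themselves lay apart. Spcs3 went from 958 and 925 to 697 and 679 TPM (1.35-fold lower, log2 fold change -0.43 ± 0.07, adjusted p = 0.00752), and Sec61b from 1089 and 1231 to 856 and 910.2 TPM (1.29-fold lower, log2 fold change -0.37 ± 0.07, adjusted p = 0.0153). The other abundant channel gene, Sec61a1, was at 1247 and 1086 TPM in wildtype and 1036 and 1003 TPM in Mist1-deficient PCs, and its difference did not pass the test (log2 fold change -0.17 ± 0.10, adjusted p = 0.228).

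The 8 members that rose did so by at most 1.48-fold. Sec61a2, the minor alpha subunit, was at 14.8 and 19.2 TPM in wildtype PCs and 25.4 and 24.1 TPM in Mist1-deficient PCs (log2 fold change 0.57 ± 0.12, adjusted p = 0.0199). Srp14 went from 319 and 356 to 437 and 483 TPM (log2 fold change 0.47 ± 0.07, adjusted p = 0.00866). Tram2 rose from 281 and 296 to 359 and 345 TPM (log2 fold change 0.31 ± 0.05, adjusted p = 0.0109) while Tram1 fell, so that Tram1 gave 73.1% of the TRAM sum in wildtype PCs and 57.5% in Mist1-deficient PCs. Bag6 (0.27), Srp9 (0.27), Ssr1 (0.24), Sec11a (0.21) and Srp72 (0.18) rose by less on the log2 scale. Of SRP, 3 of 5 subunits rose and none fell, and of TRAP 1 of 4 rose. The remaining 19 members, among them both subunits of the SRP receptor, Sec62 and Sec63, did not pass.

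The calls in PCs depended on which libraries were fitted. With replicate 1 of the wildtype PCs left out, 4 members fell and 9 rose, beside 1704 and 1637 of all genes (limma, with the lone library assumed to vary like the others). With replicate 2 of the wildtype PCs left out, 10 members fell and 7 rose, beside 2172 and 2085 genes. Without replicate 1 of the mutant PCs 2 fell and 1 rose, beside 947 and 394 genes, and without replicate 2 of the mutant PCs 1 fell and 0 rose, beside 816 and 294 genes. The counts over all genes were thus also lower in the fits with few member calls. Without the 9 members named above with a tag or copies, 2 fell and 7 rose, and without those with overlapping exons too, 2 fell and 5 rose. Dnajc1 passed in all 12 alternative fits, Tram1 and Srp14 in 11, Spcs3 in 10, and Srp72 in 5. Among PCs the neutrophil markers summed to 995 and 464 TPM in the wildtype libraries and 850 and 564 TPM in the mutant libraries, and the T cell markers to 89.8 and 89.1 TPM in the former and 104 and 134 TPM in the latter; their part in these changes was not tested. Of the 25 further genes of the pathway, 3 fell and 9 rose, where 16.2% and 13.3% of all genes did. Emc4 (0.48 ± 0.09) and Emc7 (0.35 ± 0.06) of a membrane protein insertase led those that rose. Nomo1 (-0.47 ± 0.10) and Mmgt1 (-0.47 ± 0.08) led those that fell. Emc4 and Mmgt1 carry the overlap tag of the files, and the part of shared reads in their levels was not tested.

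Whether loss of Mist1 had another effect in PCs than in PBs was tested as a difference of the 2 fold changes over all 10 libraries. Tram1 was the only member past the test (limma, where 4.17% of 13230 genes passed in this direction), and 0 members passed in the other (1.94% of genes, and 3 members at an unadjusted p under 0.05). The log2 difference of Tram1 was -0.52 ± 0.12 (adjusted p = 0.0349): it was at 657 and 652 TPM in control PBs and 586 and 551 TPM in Mist1-deficient PBs, a smaller gap than the one in PCs. This call held in 7 of 18 alternative fits and in 1 of the 10 fits with a library left out. Dnajc1, at 16.8 and 16.4 TPM in Mist1-deficient PBs, just missed it (log2 difference -0.49 ± 0.12, adjusted p = 0.0506). None passed the thresholds of the study (0.317% and 0.0831% of genes). The median difference over the members was -0.042, beside 0.0078 over all genes. Alleles, controls and culture differ between the stages and cannot be told apart from the stage.

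Wildtype PCs and control PBs were compared for the level of the machinery in the animal and in culture. In PCs 11 members were lower (limma, 38.4% of 13230 genes) and 8 higher (37.6% of genes), with medians of 0.13 over the members and 0.0064 over all genes on the log2 scale. The libraries did not overlap for 13 members lower and 13 higher (43.8% and 44.1% of genes), and none passed the thresholds of the study (6.19% of genes lower and 7.77% higher). The split depended on the scaling. On the TPM as deposited, where the median of all genes stood at 0.12, 9 were lower and 15 higher, beside 4471 and 5552 genes. After quantile normalization 6 were lower and 18 higher, beside 5192 and 4854 genes. Cell stage, culture, sort gate, genotype and experiment differ together here and cannot be told apart.

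Subunits of TRAP moved in both directions between these groups, where 38.4% of all genes were lower in PCs and 37.6% higher. The difference between the subunits was not tested. Ssr4 was higher in PCs, at 3258 and 3359.9 TPM against 1884 and 1930.4 TPM in PBs (1.60-fold, log2 fold change 0.68 ± 0.09, adjusted p = 7.53e-05), while Ssr2 was lower, at 1579 and 1560.3 against 2027 and 1964 TPM (log2 fold change -0.46 ± 0.08, adjusted p = 0.000636), and Ssr1 (-0.38) and Ssr3 (-0.21) were lower as well. Ssr4 gave 51.6% of the TRAP sum in wildtype PCs and 34.3% in control PBs. Ubl4 differed the most, at 22.3 and 19.5 TPM in PCs and 8.31 and 7.92 TPM in PBs (2.36-fold higher, log2 fold change 1.24 ± 0.14, adjusted p = 3.88e-05). Tram2 was at 281 and 296 TPM in PCs (log2 fold change 0.80 ± 0.11, adjusted p = 0.000102), Dnajc1 at 37.0 and 33.8 TPM (log2 fold change 0.71 ± 0.09, adjusted p = 5.32e-05) and Spcs1 at 1683 and 1789 TPM (log2 fold change 0.56 ± 0.09, adjusted p = 0.000279), each above both PB libraries. Ubl4, Dnajc1 and Spcs1 carry the overlap tag of the files, and the part of shared reads in their levels was not tested. For Ssr3 the direction turned under quantile normalization (0.14), and it passed in 8 of 19 alternative fits. The macrophage markers summed to 234 and 230 TPM in wildtype PCs and 6.57 and 6.03 TPM in control PBs, and the feeder markers to 28.5 and 27.3 TPM in PCs, with 6 of 10 under 1 TPM; their part in these differences was not tested. Of the 25 further genes 14 were lower in PCs and 5 higher, with the greatest changes in Emc9 (0.89), Rrbp1 (0.83), Emc1 (0.61) and Emc2 (-0.57). Emc9 carries the overlap tag too.

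Mist1-bound regions were read at the start sites of the members, on the genome build of the files (mm9). The 2 experiments gave 29413 and 30247 regions, and 24839 of the first (84.4%) met one of the second. A region common to both lay within 1 kb of a start of 27 of the 31 members (87.1%), and of 62.3% of 11151 tested genes. Among genes with a mean of at least 100 TPM in control PBs, 23 of 24 members (95.8%) and 79.8% of all 1753 such genes had one. The 4 members without a common region, Ubl4, Sgta, Asna1 and Wrb, all belong to the tail-anchored route, whose other 2 members, Bag6 and Get4, had one. With windows of 2.5 and 5 kb, 28 members had a region, and with an overlap of at least 50% of each peak required, 26 did.

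**Figure D4:**
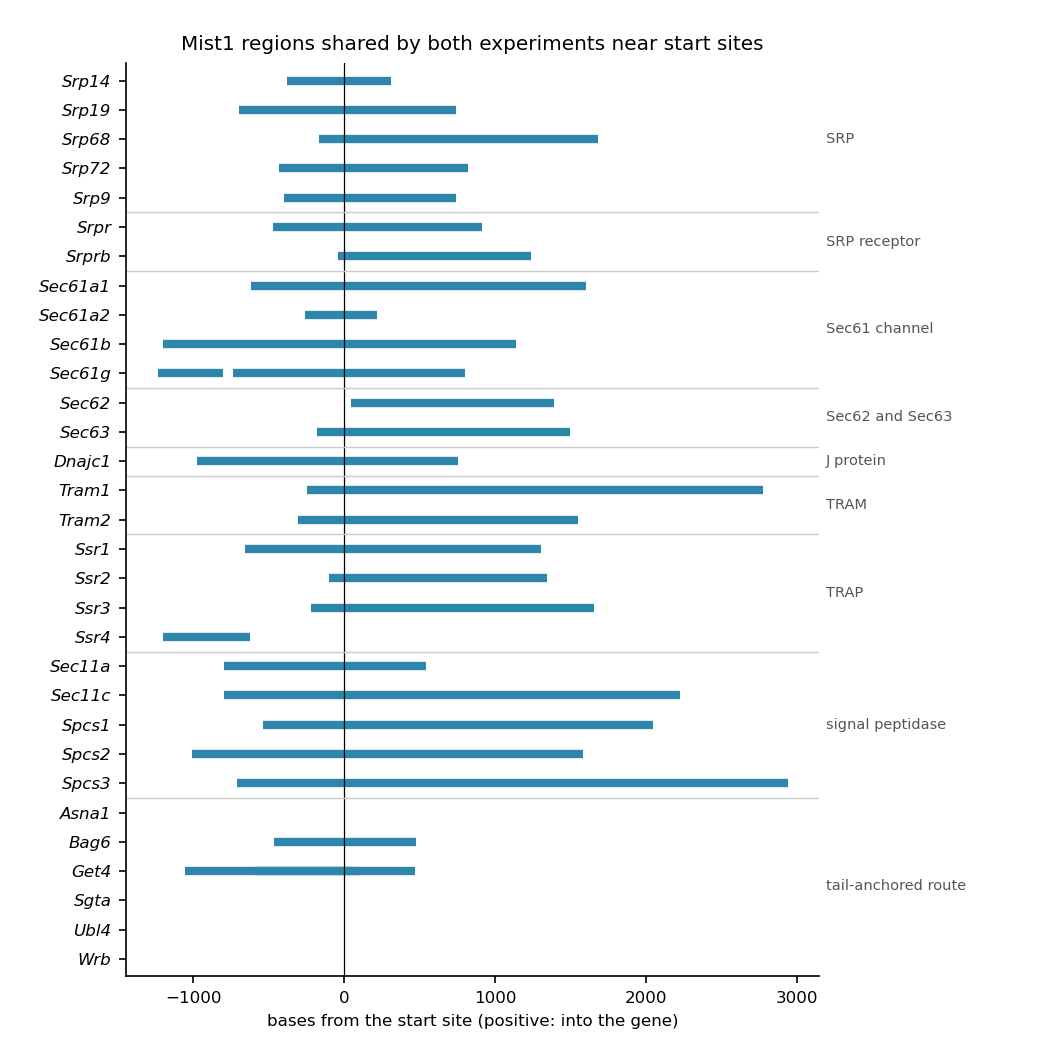
Extent of the Mist1 regions common to both experiments near the start of each member (bars), in bases from the start site, positive into the gene, on mm9. All but those of Sec62 and Ssr4 have a region across the start, those of Spcs3 and Tram1 reach 2938 and 2777 bases into the gene, and the rows of Asna1, Sgta, Ubl4 and Wrb are empty.

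These 29 regions of members were 435 to 3649 bases wide, and the widest were those of Spcs3 (chr8:55612413-55616061) and Tram1 (chr1:13577168-13580190), each crossing the start and centred in an intron. Dnajc1 carried a region over its start (chr2:18313294-18315022). The letters CAGCTG or CATATG, forms of the E-box to which proteins of the family of Mist1 are known to bind, stood in the central 300 bases of 5 of the 29 regions, where 52.2% of the 24839 common regions have one. Those common regions were neither limited to start sites nor matched for width, so the shares are not of like regions. Over the whole regions they occurred 7 times in Spcs3, 6 times in Sec11c, 5 times each in Tram1, Sec61b, Spcs2 and Srp68, and not at all in Srp19, Srprb, Ssr2, Ssr4 and Bag6. Summits were not part of the lists, so the centre of a wide region need not be its highest point. All 12 members past the test in Mist1-deficient PCs had a common region near a start, the 4 that fell as well as the 8 that rose, and so had each of the others but the 4 named above.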

How the data were processed

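RNA was measured by RNA-seq of polyA RNA in 10 libraries. The authors aligned 50-base reads to mm9, counted them per gene and deposited TPM per library, with immunoglobulin and T cell receptor genes left out; how strand and reads with several matches were treated at counting is not given in the sources used here. The submitters' processing notes name STAR 2.4.2, featureCounts 1.5, Bowtie 1.0.0, Picard 2.18.27, SAMtools 1.9, cutadapt and MACS. For Mist1, the authors called peaks in each experiment against an input control and deposited their positions only. The series text states that the Bhlha15(CreER/CreER) libraries were not used for differential analysis in the study; they were tested here. The control PCs are labelled wildtype, and the study's methods give them a floxed Bhlha15 allele without Cre.

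TPM were scaled by median-of-ratios factors, and log2(TPM + 0.1) was tested with limma 3.58.1 in R 4.3.3 (linear model, empirical Bayes with trend) with Benjamini-Hochberg adjustment over all genes that reached 1 TPM in 2 or more libraries of the fit. PBs (6 libraries) and PCs (4 libraries) were fitted separately, and all 10 together for comparisons across stages. Fold changes are on the log2(TPM + 0.1) scale of the scaled TPM, which understates those of low genes. They need not equal the ratios of the deposited TPM printed beside them. In the PB fit the scale factors were 0.944 and 0.999 for control and 1.12 and 1.12 for Xbp1-deficient libraries. The deposited TPM thus show smaller falls with Xbp1 lost than the fold changes do. A count test was not used, since TPM keep no depth and the precision they allow is unknown. Genes were named by a rule: members with values, by role, and at most 4 further pathway genes a comparison. Hspa5, Btf3, Naca and Ktn1 were named beyond this rule, after their values were seen. The members, the further genes and the markers were chosen with earlier results of these data known. Promoters came from RefSeq (GRCm38.p6; some sequences are not reported here), and regions and start sites from mm9 with GENCODE M1, in Python 3.11.15. The fits were tested on simulated data. Alternatives were pseudocounts of 1 and 0.01, TPM without scaling, quantile normalization, no filter or one at 5 TPM, other empirical Bayes settings, fits of the compared groups only, each library left out, and other windows and overlaps for the regions. Added after the data were seen were counts without the 9 members with the overlap tag of the files or copied words, and without 14, those with annotated exon overlaps included.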

Additional observations from a re-analysis of the deposited data

Results flagged for a closer look

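The effect of Mist1 loss on Tram1 differed between PCs and PBs by a test of the difference itself, with a log2 difference of -0.52 ± 0.12 (limma, adjusted p = 0.0349). Tram1 was lower in Mist1-deficient PCs by 1.62-fold and its log2 fold change in Mist1-deficient PBs was -0.16 ± 0.08. Alleles, controls and culture differ between PCs and PBs as well, and cannot be told apart from the stage. Tram1 was the only one of 31 members past the test in this direction, where 4.17% of all genes passed, and the call held in 7 of 18 alternative fits and in 1 of the 10 fits with a library left out. With 2 libraries a group, no search for a library far from its group was possible.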

How the results depend on the processing

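With Xbp1 lost, 22 of the 24 members that fell did so under all 15 alternatives, except Sec11c (14) and Ubl4 (7); against Mist1-deficient PBs, 23 of 24 did, except Sec11c (14). In PCs only Dnajc1 of 12 members passed under all 12 alternatives, and the difference between stages held for Tram1 in 7 of 18. Dnajc1 carries the overlap tag of the files, and the part of shared reads in its level was not tested. On the TPM as deposited, 6 members passed the thresholds of the study with Xbp1 lost, 2 were higher in that comparison and 2 against Mist1-deficient PBs, where Bag6 (0.16) and Sgta (0.22) turned; 8 were lower in Mist1-deficient PCs, 15 were higher in PCs than PBs and 3 differed between stages, with medians of -1.10, -0.90 and 0.25 for the comparisons of Xbp1 loss with either PB group and of the stages. After quantile normalization 1 member was higher with Xbp1 lost, 8 were lower in Mist1-deficient PCs, 6 were lower and 18 higher in PCs than PBs, and 4 differed between stages, with medians of -1.16 and -0.97 for the 2 comparisons of Xbp1 loss; Sec62 (0.18), Srp19 (0.16), Srp72 (0.026), Srprb (0.16) and Ssr3 (0.14) turned to higher in PCs than PBs. Of all called genes, the share that was higher with Xbp1 lost was 36.4%, 71.6% as deposited and 56.1% after quantile normalization; against Mist1-deficient PBs it was 34.4%, 75.9% and 55.7%. The members differing between stages numbered 2 with a pseudocount of 1, 2 with at least 5 TPM, 2 with robust empirical Bayes, 0 with no filter and 0 without trend, and those higher in Mist1-deficient PCs 5 with no filter and 1 without trend. Without the 9 members with a tag or copies, 2 fell in PCs, and without those with overlapping exons too, 2 fell and 5 rose in PCs and 12 of 17 fell with Xbp1 lost; fewer members are counted in both. The cause of the other moves was not tested.

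With each library left out in turn, the counts ran from 1 to 10 lower and 0 to 9 higher in Mist1-deficient PCs, and from 0 to 2 for the difference between stages, and the medians from -0.054 to 0.13 with Mist1 lost in PBs, from 0.017 to 0.17 for PCs against PBs and from -0.14 to 0.088 for the difference between stages. Over all alternatives, 2763 gene values kept their side of the threshold, 82 lost their call, 62 gained one and 7 turned. A turn was counted only where the main or the alternative fit called the gene. The 2763 can thus include uncalled values that changed direction. No paired analysis was possible because the labels carry no replicate numbers. Depth is unknown, so the precision of low genes such as Sec61g and Ubl4 rests on 2 libraries a group alone.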
